A study of Caenorhabditis elegans with 4 samples.

Results

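NHR-28 peaks on chromosome V of Caenorhabditis elegans are described here. They were taken as every row on V in 3 peak lists from chromatin immunoprecipitation followed by sequencing (ChIP-seq). The series-level list held 423 such peaks of 2343 in all, the list of ChIP replicate 1 held 97 of 649, and that of ChIP replicate 2 held 92 of 495. Membership rests on position alone, so peak strength, width and replicate support were free to vary. The other autosomes, I to IV together, were the background and held 1748, 508 and 366 peaks in the same 3 lists.

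The 2 ChIP libraries and 2 input libraries came from hermaphrodite embryos of strain OP317 grown at 20 degrees Celsius, with 2% formaldehyde as crosslinker. The genotype, shared by all 4 libraries, was unc119(ed3) with the bombarded transgene wgIs317(nhr-28::TY1 EGFP FLAG;unc119). ChIP used affinity-purified antibodies against GFP, and input was extract set aside before that step. Per the labels the fusion follows the expression pattern of nhr-28. They list no mutation of nhr-28 itself, and no control strain without the tag was analysed here. Whether the replicates were separate cultures is not in the labels, so their spread may be technical. No input values were analysed, and read depth is unknown.

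Nuclear hormone receptors are transcription factors with a zinc-finger DNA-binding domain and a pocket for small lipophilic ligands. The family is greatly expanded in nematodes. Chromosome V is the longest C. elegans chromosome and is known for large clusters of chemoreceptor and nuclear hormone receptor genes. On worm autosomes the central part recombines little and is rich in conserved genes, whereas the arms recombine more and hold more repeats. Positions below are on WormBase WS220. The gene table at hand belongs to another assembly, so no peak was given a gene, exon, intron or sequence.

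Every peak carries a value from the peak caller, a p-value or q-value that the files do not tell apart. It is called the caller value here; a lower one is a stronger peak, and all are below 0.001. Caller values depend on depth, so their levels were compared within a list only, except for values of the same site. Those of the replicates are plotted and correlated with each other, and series-level values are set against replicate values at the end. Tests below count peaks, not libraries. Neighbouring peaks are not independent, so these p-values are too small and the intervals too narrow by an unknown amount, and they cover counting error only.

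The first question was how densely V carried sites. V had fewer peaks per Mb than the other autosomes together in all 3 lists, and about as many as IV in the series-level list. Density on V was 20.3 peaks per Mb in the series-level list, 4.65 in replicate 1 and 4.41 in replicate 2. On the other autosomes it was 28.4, 8.27 and 5.96 peaks per Mb. The ratio of V to the others was 0.713 (95% interval 0.640 to 0.794) in the series-level list. In replicate 1 it was 0.563 (0.448 to 0.700), and replicate 2 gave 0.741 (0.583 to 0.933). The highest peak end of any list stood in for chromosome length, 20850461 bp for V. V then made up 25.3% of the autosomal length but 19.5% of the autosomal series-level peaks (exact binomial test over the 3 lists, adjusted p = 3.91e-10). Its share was 16.03% of replicate 1 peaks (exact binomial test, adjusted p = 5.99e-08) and 20.1% of replicate 2 peaks (adjusted p = 0.0098).

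The single autosomes were compared with V in 12 tests, 4 chromosomes in 3 lists, added after the data were seen. Chromosome III was the farthest from V, V having 0.539 times its density in the series-level list, 0.389 times in replicate 1 and 0.533 times in replicate 2 (exact binomial test, adjusted p = 3.67e-20, 3.18e-13 and 2.60e-05). V also lay below II in each list, with ratios of 0.748, 0.578 and 0.717 (exact binomial test, adjusted p = 7.32e-05, 1.04e-04 and 0.039). Against chromosome I the ratios were 0.668, 0.632 and 0.767, of which that of replicate 2 did not pass (exact binomial test, adjusted p = 0.097). Against IV the ratio was 0.980 in the series-level list, with an interval of 0.850 to 1.13 (exact binomial test, adjusted p = 0.80). In replicate 1 the ratio was 0.738 (0.556 to 0.978), while replicate 2 gave 1.07 (0.777 to 1.48) (exact binomial test, adjusted p = 0.041 and 0.76). V and IV were thus neighbours at the low end of the autosomes, and their order differed between lists.

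**Figure D1:**
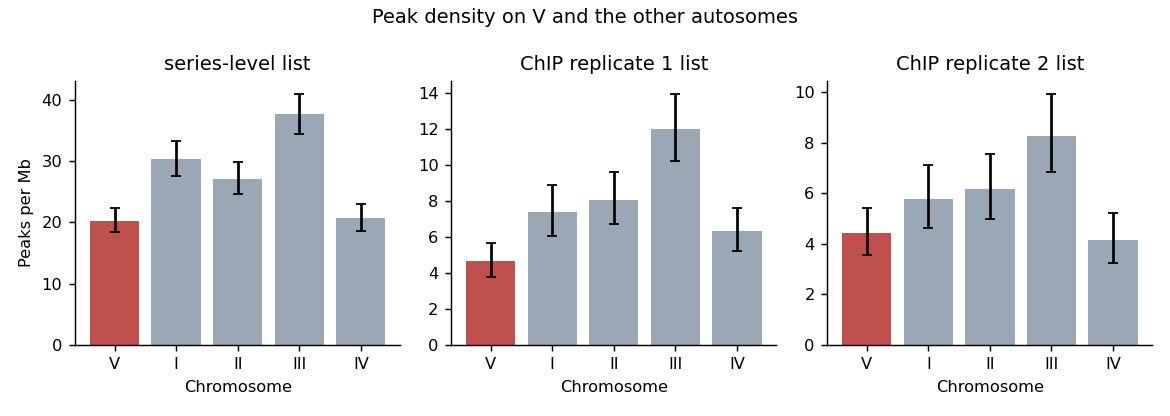
Peaks per Mb of stand-in chromosome length (vertical axis) on V and on autosomes I to IV, one panel for each peak list; error bars are exact 95% Poisson intervals of the peak count. V stands at 20.3, 4.65 and 4.41 peaks per Mb in the 3 panels, below III in each and beside IV in the series-level and replicate 2 panels.

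The strongest site on V, by series-level caller value among sites in both replicate lists, lay at 11313978 to 11314555, slightly right of the middle. It had caller values of 2.74e-49 (series-level list), 2.60e-23 (replicate 1) and 1.44e-25 (replicate 2). It ranked 2, 3 and 1 in those lists over all chromosomes. The next site, at 19642946 to 19643400 near the right end, had 2.27e-38, 1.07e-18 and 1.08e-17. The site at 8500348 to 8500742 had 4.45e-36, 2.51e-18 and 1.85e-17. These 3 sites were among the first 11 peaks of every list.

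The fourth site, at 15873748 to 15874159, had caller values of 7.98e-36 in the series-level list, 6.79e-19 in replicate 1 and 1.13e-15 in replicate 2. The fifth, at 1627265 to 1627622 in the left arm, had 4.54e-35, 7.57e-21 and 2.64e-14. The sixth, at 12303401 to 12304128, had 3.50e-32, 9.81e-19 and 2.81e-17. From there values stepped down, to 2.78e-25 at 1743370 to 1743866, a site with rank 29 in replicate 1 and rank 34 in replicate 2. In the plot of replicate values these first 6 sites stand apart from the other sites whose starts and ends together differed by over 10 bp. A site outside that set, at 5284004 to 5285459, lies beside them, with 6.82e-19 in replicate 1 and 8.34e-14 in replicate 2. Its series-level rank was only 545.

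The 20 strongest sites of V in both replicate lists were spread over its length, with 9 in the middle 50%, 8 in the left 25% and 3 in the right 25%. All 56 V peaks in both replicate lists, from which the 20 were taken, had 32, 16 and 8 in the same order. The 20 sites were 323 to 1370 bp wide with a median of 476 bp. The left arm sites included one at 53336 to 53658, close to the chromosome end (series-level 3.24e-20, rank 57). Further left arm sites lay at 1151242 to 1151680 (2.08e-19), 5049422 to 5049866 (5.17e-19), 777285 to 777635 (7.87e-16) and 3193130 to 3193493 (2.25e-15). Central sites lay at 9343906 to 9344588 (3.40e-22), 11782725 to 11783229 (7.15e-21) and 12001792 to 12002475 (3.93e-17). Among the wider central sites, that at 6227085 to 6228119 (2.23e-19) spanned 1035 bp, that at 5790339 to 5791168 (9.20e-18) 830 bp and that at 9730806 to 9732175 (2.35e-17) 1370 bp. The third right arm site was at 19522200 to 19523048 (849 bp, 4.13e-17).

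Replicate ranks of the 20 sites were not always alike. Of them, 15 were within the first 100 peaks of replicate 1 and 16 within the first 100 of replicate 2. For the site at 5790339 to 5791168 the rank was 288 (replicate 1) and 33 (replicate 2), and its replicate 1 peak spanned 276 bp against 846 bp in replicate 2. The ranks of the site at 11782725 to 11783229 were likewise 131 and 23. In the other direction, the site at 19522200 to 19523048 had rank 94 in replicate 1 but rank 255 in replicate 2. With 1 library per replicate these differences in rank have no test.

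V held 8 of the 50, 17 of the 100 and 30 of the 200 strongest series-level peaks of all chromosomes. In the replicate lists it held 18 of the 100 strongest in replicate 1 and 20 of the 100 strongest in replicate 2. For comparison, V held 423 of all 2343 series-level peaks, 97 of 649 in replicate 1 and 92 of 495 in replicate 2. Of the autosomal peaks alone it held 17 of 85 in the first 100 and 30 of 169 in the first 200 at series level, against 19.5% of the whole list. These counts were not tested. The stronger 50% of autosomal series-level peaks held 196 of the 423 V peaks (46.3%), against 890 of 1748 (50.9%) on the other autosomes, with 50% over all autosomes by construction (Fisher's exact test, p = 0.093, adjusted p = 0.31). In replicate 1 the share was 52.6% on V and 49.6% on I to IV, with 50.1% over all autosomes, and in replicate 2 it was 47.8% on V and 50.5% on I to IV (Fisher's exact test, adjusted p = 0.94 each). The replicate 1 direction was the opposite of the other lists. The strongest 25% of autosomal series-level peaks held 21.04% of V peaks, against 25.97% on the other autosomes (Fisher's exact test, unadjusted p = 0.039).

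Most V peaks had no counterpart in a replicate list. A counterpart, or partner, was a peak sharing at least 1 bp. Of the 423 series-level peaks on V, 56 (13.2%) had a partner in both replicate lists, 35 in replicate 1 only, 35 in replicate 2 only and 297 (70.2%) in neither. Over all autosomes 14.4% were in both lists and 31.9% in at least 1 list. On I to IV, 257 of 1748 (14.7%) were in both, and the difference from V did not pass (odds ratio 0.885, 95% interval 0.637 to 1.22, Fisher's exact test, adjusted p = 0.79). Support in at least 1 list was 29.8% on V and 32.4% on I to IV (odds ratio 0.884, interval 0.695 to 1.12, Fisher's exact test, adjusted p = 0.60).

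Support on V dropped over a short stretch of ranks. All of the first 25 V peaks were in both replicate lists, and 18 of the next 25. Among V ranks 51 to 100 there were 10 in both lists, with 31 in 1 list and 9 in neither. Among V ranks 101 to 200 it was 2, with 72 in neither, and of the last 223 peaks 215 were in neither. Support was also set side by side at matched ranks of the whole list, without a test. In ranks 201 to 400, 17 of 27 V peaks (63.0%) and 93 of 152 other autosomal peaks (61.2%) were in both lists. In ranks 401 to 600 the shares were 16.7% on V and 16.4% on the others, while 16.7% of V peaks and 26.3% of the others were in neither list. In ranks 601 to 800, 3 of 34 V peaks (8.82%) and 1 of 153 other autosomal peaks (0.654%) were in both lists.

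Peaks with support were stronger and wider. The median −log10 caller value on V was 11.4 for peaks in both lists, 6.08 for replicate 1 only, 6.23 for replicate 2 only and 3.66 for neither. In the same order the median width was 379.5 bp, then 296 bp, 263 bp and 209 bp. The lists describe the same libraries, and a weak peak can miss the 0.001 limit in a single library, so this order is a description and no separate evidence for the sites.

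Widths on V were close to those elsewhere. The median V peak was 254 bp wide in the series-level list (quartiles 150 and 366), against 244 bp (154 and 378) on I to IV. In replicate 1 the medians were 291 and 288.5 bp, and in replicate 2 they were 262.5 and 277 bp. V peaks covered 6.28 bp per kb of chromosome in the series-level list, against 8.70 on the other autosomes together and 6.64 on IV alone.

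Very narrow peaks, under 50 bp, numbered 33 on V (7.80%, against 7.83% of all autosomal peaks), and 137 of 1748 (7.84%) on I to IV (odds ratio 0.995, interval 0.648 to 1.49, Fisher's exact test, adjusted p = 1). All 33 were in neither replicate list, as were 131 of the 137 on I to IV. Of peaks of any width, 70.2% on V and 67.6% on I to IV were in neither. In each replicate list V had 2 such peaks, or 2.06% in replicate 1 and 2.17% in replicate 2, against 2.81% and 2.4% over all autosomes. Only 2 series-level V peaks reached 2000 bp. The wider, at 14685672 to 14688286 (2615 bp, 2.01e-09, rank 343), was also the strongest V peak in neither replicate list. The other, at 15431156 to 15433252 (2097 bp, 7.40e-13, rank 175), had a partner of 2060 bp in replicate 2 (3.22e-08, rank 79) and none in replicate 1. That replicate 2 peak was the strongest on V without a partner in the other replicate.

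The replicate lists shared 57 sites on V. These were 58.8% of the 97 replicate 1 peaks, against 262 of 508 (51.6%) on I to IV, with 52.7% over all autosomes (Fisher's exact test, adjusted p = 0.48). They were 62.0% of the 92 replicate 2 peaks, against 262 of 366 (71.6%), with 69.7% over all autosomes (Fisher's exact test, adjusted p = 0.31). Shared peaks on V had a median −log10 caller value of 6.01 in replicate 1 and 4.90 in replicate 2, and unshared peaks had 3.64 and 3.46. Peak starts of the shared sites differed by a median of 24 bp and ends by 25 bp. Across the 57 sites, which share 2 libraries, Pearson's r of the −log10 values was 0.89 and Spearman's rho 0.71, given as descriptions.

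**Figure D2:**
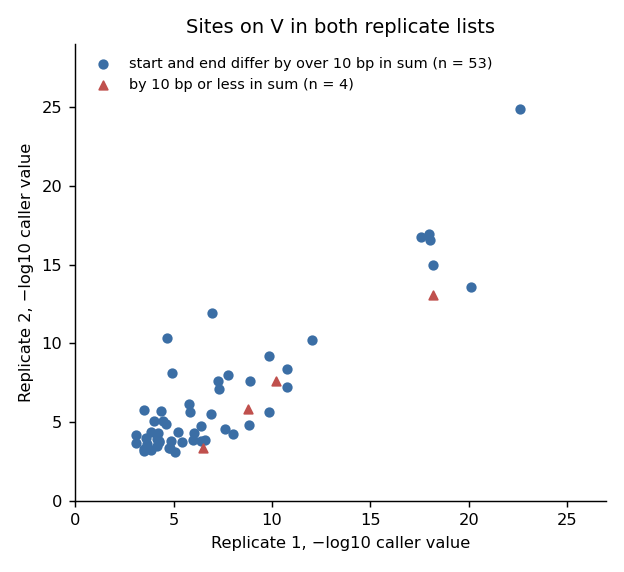
Caller values of the 57 sites on V found in both replicate lists, as −log10 in replicate 1 (horizontal axis) and replicate 2 (vertical axis); triangles are the 4 sites whose starts and ends together differ by 10 bp or less. The strongest site stands alone at 22.6 and 24.8, and 5 further circles lie between 17.6 and 20.1 in replicate 1. A triangle at 18.2 and 13.1 lies beside those 5.

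The replicates differed in how many unshared peaks fell on V, a comparison added after the data were seen. V held 35 of the 139 unshared autosomal peaks of replicate 2 (25.2%) and 40 of the 286 of replicate 1 (14.0%). The odds ratio was 2.07 (95% interval 1.20 to 3.55, Fisher's exact test, p = 0.0064, adjusted over the 5 autosomes p = 0.032). None of the other autosomes passed, the nearest being IV with 12.2% of replicate 2 and 19.2% of replicate 1 unshared peaks (Fisher's exact test, adjusted p = 0.19). With 1 peak per 10 kb cluster the odds ratio for V was 1.70 and did not pass (Fisher's exact test, p = 0.067). Each replicate is 1 library, so the test compares these libraries only.

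The series-level list contains nearly all of these replicate peaks (91 of the 92 replicate 2 peaks on V and 91 of the 97 of replicate 1), so support by replicate restates the split and is no separate evidence. Among autosomal peaks seen in replicate 2 only, 35 of 127 (27.6%) were on V, against 35 of 253 (13.8%) of those seen in replicate 1 only. A partner in replicate 1 was found for 21.5% of V peaks and for 27.2% of peaks on I to IV (odds ratio 0.735, Fisher's exact test, unadjusted p = 0.019). For a partner in replicate 2 the shares were 21.5% and 20.0% (odds ratio 1.10, Fisher's exact test, unadjusted p = 0.50). The strongest V peaks in replicate 2 without a replicate 1 partner, after the wide one above, were at 11113221 to 11113475 (1.28e-06, rank 123) and 14055120 to 14055312 (1.56e-06, rank 125). The strongest in replicate 1 without a replicate 2 partner were weaker in rank, at 11082501 to 11082819 (1.06e-05, rank 236), 8648 to 9022 (1.18e-05, rank 240) and 15663929 to 15664336 (1.30e-05, rank 253). All 6 had a series-level partner.

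The second question was whether sites favoured the centre or the arms of V. The centre was the middle 50% of the stand-in length, 5212615 to 15637845, and each arm the outer 25% on its side. The centre held 225 of the 423 series-level peaks (53.2%, 95% Clopper-Pearson interval 48.3 to 58.03%), where all autosomes together had 49%. It held 55 of 97 (56.7%) in replicate 1 and 52 of 92 (56.5%) in replicate 2. The direction was the same in each list, but none of the 3 passed against an even split (exact binomial test, adjusted p = 0.47 each). With 1 peak per 10 kb cluster the centre share was 56.3% (exact binomial test, unadjusted p = 0.033).

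On the other autosomes the centre held 47.9% of series-level peaks, 47.2% of replicate 1 peaks and 47.8% of replicate 2 peaks. The odds ratio of V against them was 1.23 (0.992 to 1.54), 1.46 (0.923 to 2.33) and 1.42 (0.873 to 2.31) in the 3 lists (Fisher's exact test, adjusted p = 0.31, 0.31 and 0.42). The unadjusted series-level p was 0.058 (Fisher's exact test). It was 0.036 in the stronger 50% of the whole series-level list, which held 186 V peaks, and 0.012 with 1 peak per 10 kb cluster (Fisher's exact test). Of the 13 Fisher's exact tests of V against I to IV, 0 passed after adjustment and 0 had an unadjusted p under 0.05 at the main settings.

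**Figure D3:**
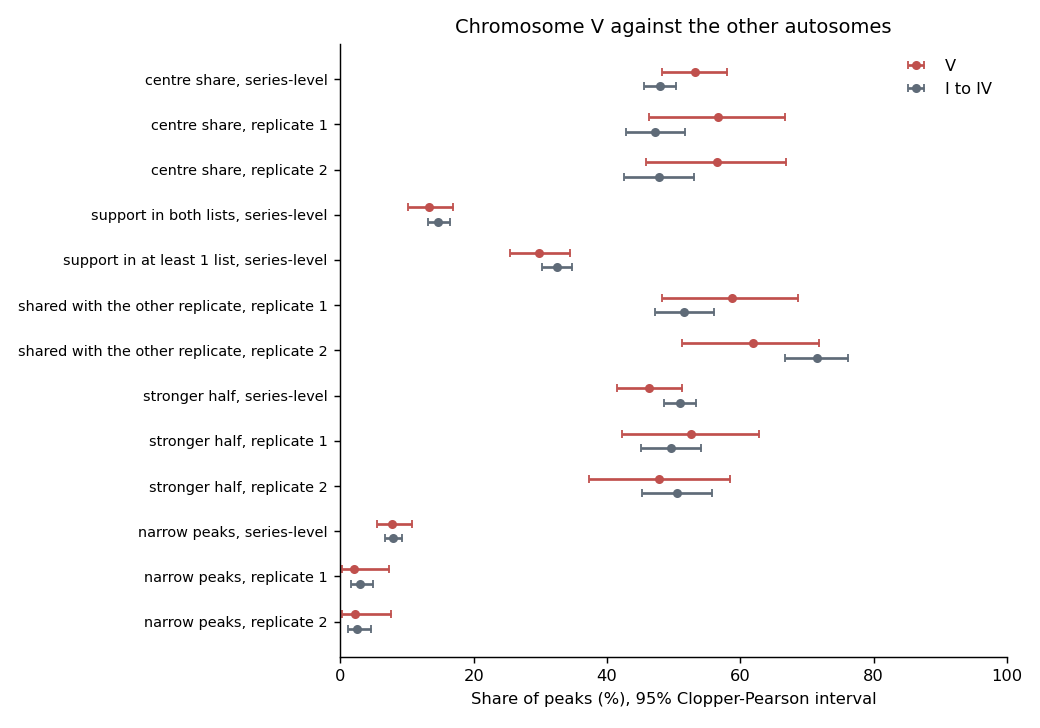
Share of peaks in percent (horizontal axis) on V, upper point, and on I to IV, lower point, for the 13 comparisons named on the left; bars are 95% Clopper-Pearson intervals. The intervals of V and I to IV meet in each comparison, and the centre share is higher on V in all 3 lists.

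The 2 arms carried like numbers of series-level peaks, 98 in the left and 100 in the right (exact binomial test, adjusted p = 0.94). In the replicate lists the left arm had more, with 24 against 18 in replicate 1 and 24 against 16 in replicate 2, and neither passed (exact binomial test, adjusted p = 0.62 and 0.47). Peaks in both replicate lists were 8 of 100 (8%, interval 3.52 to 15.2%) in the right arm, 16 of 98 (16.3%, 9.63 to 25.2%) in the left arm and 32 of 225 (14.2%, 9.94 to 19.5%) in the centre. The centre and the arms together did not differ detectably in this support (odds ratio 1.20, interval 0.657 to 2.22, Fisher's exact test, adjusted p = 0.66). Of the 50 strongest V peaks, 6 lay in the right arm and 16 in the left.

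Peak counts varied along V, within the centre as well as within the arms, and whether this exceeds counting error was not tested. Over complete 1 Mb bins the standard deviation of series-level counts was 5.67 on V and 9.88 on I to IV together. The I to IV value also holds differences between those chromosomes, whose densities ran from 20.7 (IV) to 37.7 (III) peaks per Mb. It is therefore no measure of the spread along a single chromosome. The length was cut into 10 equal segments, numbered from the left end, and the series-level count ran from 29 in segment 2 to 53 in segments 3 and 6. Segment 6 (10.4 to 12.5 Mb) was the fullest in replicate 1, with 22 of its 97 peaks, and held 14 replicate 2 peaks. It holds the strongest site of V and 10 of the 56 peaks found in both lists. Segment 1 (0.0 to 2.1 Mb) held 46 series-level peaks, of which 12 were in both lists, with 17 and 14 peaks in the replicate lists. Segment 8 (14.6 to 16.7 Mb) had 8 peaks in replicate 1 and 15 in replicate 2, and was the fullest of replicate 2.

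**Figure D4:**
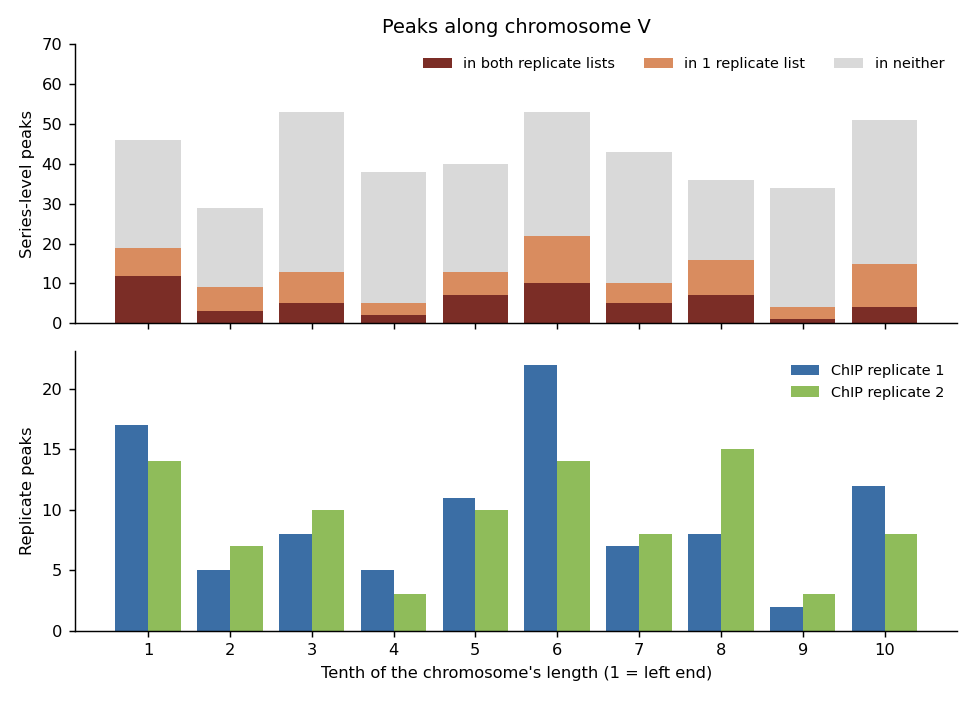
Number of V peaks (vertical axes) in each of 10 equal segments of the stand-in length (horizontal axis, left end first), with series-level peaks split by replicate support above and replicate peaks below. Segments 1 and 6 hold 12 and 10 peaks found in both lists, whereas segment 9 holds 34 series-level peaks of which 1 is in both.

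The emptiest and the fullest 1 Mb of V were neighbours. Between 17 and 18 Mb there were 7 series-level peaks and 0 in either replicate list, and the strongest of the 7 had a −log10 caller value of 5.02. Between 18 and 19 Mb there were 29 series-level peaks, but 2 in replicate 1, 3 in replicate 2 and 1 in both. Over the 20 complete bins of V the series-level median was 20.5 peaks, against 28 over the 59 bins of I to IV, where counts ran from 11 to 50. Density on IV alone was 20.7 peaks per Mb, near that of V.

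The longest stretch of V without a replicate 1 peak ran from 16965914 to 18354345 (1388 kb), and that without a replicate 2 peak from 16592213 to 18354351 (1762 kb). Both end at a site found in both replicates, with starts 6 bp apart. The longest such stretches on I to IV were 1154 kb in replicate 1 and 1299 kb in replicate 2, both on IV. In the series-level list the longest V gap was 649 kb, from 17122352 to 17771401, against at most 369 kb on I to IV. Series-level peaks were sparser on V and IV than on I, II and III, with median gaps of 28.8 kb on V and 27.2 kb on IV. The gap lengths were not tested. The stretch empty in both replicates held 12 series-level peaks, or 8.64 per Mb, the strongest with a caller value of 5.01e-06 (rank 827). Mappability and repeat content of this stretch were not tested.

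The densest 20 kb windows of the other autosomes held 9 series-level peaks on III, 8 on II, 5 on I and 5 on IV. The densest of V, at 18704999 to 18724695, also held 9 series-level peaks. Its peaks were 241 to 1882 bp wide with a median of 876 bp, while the V median was 254 bp. Their caller values ran from 3.02e-08 (rank 446, at 18724171 to 18724695) to 7.10e-04, and the best-ranked peak was in neither replicate list. The only replicate peak in the window was one of replicate 2 at 18723119 to 18723925 (3.39e-04, rank 375).

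The second window, at 6221442 to 6229798, held 6 peaks in 8357 bp with another make-up. Its strongest peak is the 1035 bp site described above, with caller values of 2.23e-19 in the series-level list, 5.07e-08 in replicate 1 and 8.25e-08 in replicate 2. A second peak, at 6224354 to 6224820, had 9.00e-12, 2.60e-07 and 1.47e-04, and the other 4 peaks were in neither replicate list. The third window, at 11514760 to 11532604, held 6 peaks of which 2 were in replicate 1 and 0 in replicate 2. The fourth, at 4496975 to 4508471, held 5 with 0 in replicate 1 and 1 in replicate 2. The fifth, at 19622449 to 19640732, held 5 with 2 in replicate 1, 1 in replicate 2 and 1 in both lists, a peak of 1670 bp (4.27e-13, rank 166), and it ends close to the second strongest site of V.

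**Figure D5:**
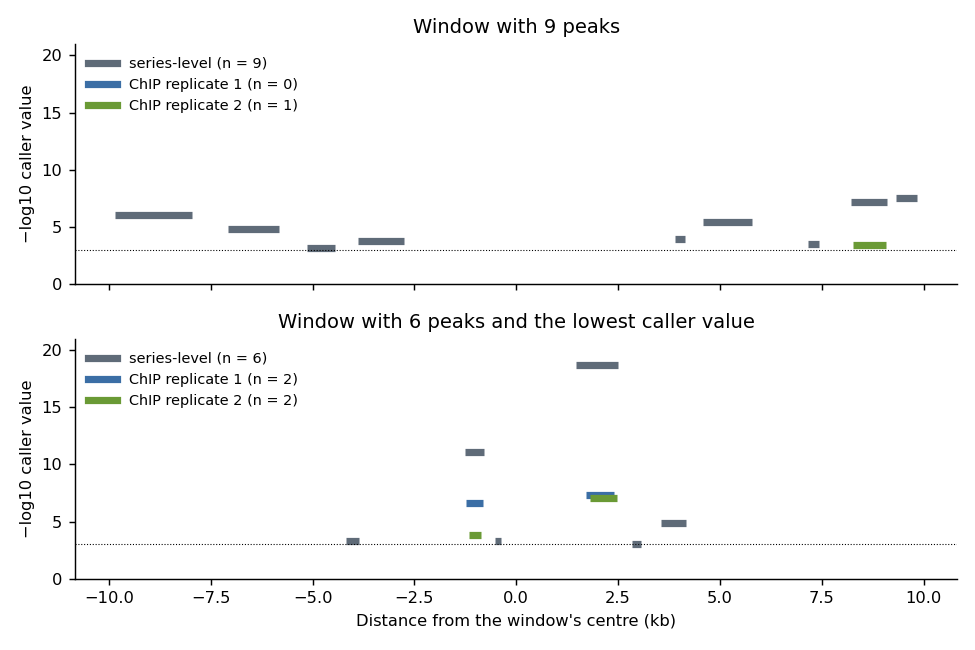
Peaks in the densest and second densest 20 kb windows of V, by distance from the window's centre in kb (horizontal axis) and −log10 caller value (vertical axis); each bar spans the peak's width, and the dotted line marks 0.001. The upper window has 9 series-level peaks and 1 replicate peak, whereas in the lower one 2 of 6 series-level peaks recur in both replicate lists.

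Neighbouring peaks were counted within 5 kb. Another peak midpoint lay that close to 132 V peaks (31.2%), against 36.8% on I to IV, where peaks are denser; this was not tested. In 3 cases 2 V peaks within 5 kb of each other were both in both replicate lists, a count that was not made for I to IV. The pair with the strongest member was 1627265 to 1627622 (rank 11) and 1629309 to 1629657 (2.09e-15, rank 119). The others were 6224354 to 6224820 with 6227085 to 6228119, and 773333 to 773589 (1.48e-09, rank 327) with 777285 to 777635 (rank 110).

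At 4 sites of V the replicate peaks had nearly the same ends, starts and ends together differing by 10 bp or less. These sites were chosen after their values were seen. At the 3 of them with a series-level peak, the series-level caller value was weaker than that of either replicate. The site at 5284004 to 5285459 had rank 8 in replicate 1 (6.82e-19), rank 20 in replicate 2 (8.34e-14) and rank 545 at series level (1.86e-07). For the site at 264906 to 265848 the same 3 ranks were 52, 76 and 873, and for that at 14769373 to 14769748 they were 150, 398 and 1953. The replicate 1 peak at 12509901 to 12510294 ranked 69, with a replicate 2 partner at rank 128, and had no series-level peak.

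Over the 56 shared V sites with a series-level peak, the series-level −log10 value less both replicate values had a median of 0.95 (quartiles 0.12 and 1.69). It was below -5 at 3 sites, which are the first 3 named above, with differences of -24.5, -12.7 and -6.57. On I to IV the median was 1.10 over 253 sites, with 6 below -5 and 18 of 262 sites with like ends. The overlap of the 6 and the 18 was not counted, so I to IV give no background for the pattern at the 3 V sites. Without the 4 sites, Pearson's r between replicates on V was 0.90 over 53 sites and Spearman's rho 0.70. How the series-level list was made is not given in the sources used here, and the cause of these differences was not tested.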

How the data were processed

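Peaks of 2 ChIP libraries were deposited by the authors as 1 list per replicate and 1 list for the series; no peak values of the 2 input libraries were used. Per the file headers, positions are on WormBase WS220, and PeakSeq is named as the caller in a column of the deposited files. Each peak has a p-value or q-value as deposited. The PeakSeq version, aligner, read filters, use of input, any pooling of reads and the depth per library were not given in the sources used here.

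Lists were read and compared with Python 3.11.15, pandas 2.3.3, numpy 2.4.6 and scipy 1.17.1. Peaks sharing at least 1 bp were partners. The single caller value of 0 lies on X and ranks first. Chromosome lengths were the highest peak end of any list, which can only understate them. Peak midpoints set centre and arms. Shares were tested with two-sided exact binomial and two-sided Fisher's exact tests and have 95% Clopper-Pearson intervals. Benjamini-Hochberg adjustment ran over 3 tests of the V share, 7 tests within V and 13 tests of V against I to IV. The functions were tested on simulated lists. Alternatives were the single replicate lists, stronger peaks, peaks in both lists, stricter overlap, a centre of 40% or 60%, and 1 peak per 10 kb cluster of midpoints.

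Sites named were the 20 strongest on V in both replicate lists, the 3 strongest of each replicate without a partner, the strongest in neither list, those of at least 2000 bp, the 5 densest 20 kb windows and the fullest and emptiest 1 Mb; others named were chosen after their values were seen. The members, lists and tests were chosen with earlier results of these data known. Gene context and sequence were not analysed here, because the gene table at hand, of WBcel235, is of another build.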

Additional observations from a re-analysis of the deposited data

How the results depend on the processing

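The lower share of V among autosomal peaks passed under all 5 alternatives run, from 16.03 to 20.6%. The other planned results had missed the threshold at the main settings. By unadjusted p, the centre share of V passed with 1 peak per 10 kb cluster (56.3%, exact binomial test). Against I to IV it passed in the stronger 50% of the whole list, with 186 V peaks (odds ratio 1.41), and with 1 peak per cluster (1.39). The odds ratio for strong peaks passed for the strongest 25% of autosomal peaks (0.760), also by unadjusted p. The odds ratio for support passed when a partner in replicate 1 alone was asked for (0.735, Fisher's exact test, p = 0.019). The left share of arm peaks, 49.5% in the main list, turned to 55.4% in the stronger 50%, 66.7% among peaks in both replicate lists and 50.8% with 1 peak per cluster. The odds ratio for support in both lists turned to 1.03 in the stronger 50%, and that for narrow peaks to 1.07 with 1 peak per cluster. None of these turned values passed. The V share of unshared peaks, replicate 2 against replicate 1, a comparison chosen with its alternatives after seeing the data, missed the threshold with 1 peak per cluster (odds ratio 1.70). The cause of these changes was not tested.

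In the single replicate lists the left share of arm peaks was 57.1 to 60%, the centre share 56.5 to 56.7%, and the odds ratio of V against I to IV 1.42 to 1.46 for the centre, 0.897 to 1.13 for strong peaks and 0.692 to 0.882 for narrow peaks. With 1 replicate the odds ratio for support was 0.735 to 1.10, and for centre against arms 1.09 to 1.16. No paired analysis was possible because peak values exist here for ChIP alone, with no input value to pair. With depth unknown, a peak missing from a list cannot be told apart from one below the caller's limit. Too few samples were at hand to look for a single library that stands apart.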
